A study of Mus musculus with 6 samples.

Results

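The histone cluster genes are the replication-type histone genes that sit in groups in the genome and carry the older symbols Hist1h, Hist2h, Hist3h and Hist4h. Every gene whose symbol starts with 1 of these prefixes was kept, which gave 29 genes of the 16894 listed: 4 for the linker histone H1, 6 for H2A, 6 for H2B, 6 for H3 and 7 for H4. They lie on chromosome 13 (22 genes), chromosome 3 (6 genes) and chromosome 11 (1 gene). The mouse annotation GENCODE M21 names 70 genes with these prefixes, and the other 41 were not analysed here.

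The levels come from bulk RNA sequencing of fibro-adipogenic progenitors (FAPs), the mesenchymal cells of muscle that can become fibroblasts or adipocytes. FAPs were sorted by magnetic beads (CD45-/CD31-/α7-integrin-/SCA-1+) from hindlimb muscle of C57BL/6 mice that were young adults of both sexes, and were grown in culture with basic fibroblast growth factor at low oxygen. The 3 control FAP libraries came from non-senescent cultures. The 3 senescent FAP libraries came from cultures exposed to 20 μM etoposide, a topoisomerase II poison that breaks DNA, for 48 h and then kept for 5 days in normal medium. No transgene or deletion was involved. Neither the labels nor the methods say whether the 3 cultures of a group came from separate mice, so the p-values measure the spread between these libraries, which may be technical.

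Cluster histone genes supply the bulk of the histones laid onto new DNA, and their RNA normally accumulates in S phase and is lost when replication stops. Their mRNA is unusual in that it has no poly(A) tail: it ends just after a short stem-loop, which the stem-loop binding protein holds and the U7 snRNP helps to cut. Many of these genes also have a poly(A) signal further downstream, and a transcript that runs past the stem-loop can be cut there and given a tail instead. The libraries here were made with a kit that selects poly(A) RNA, so histone RNA that ends at the stem-loop was selected against. The values below therefore describe polyadenylated or carried-over histone RNA, not the total.

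The stem-loop and the downstream signal are shown first, since they bear on what such a library can hold. A pattern of 16 letters (GG, any 2 letters, CTTTT, any letter, AG, any letter, GCC) was searched on the sense strand after the stop codon. The search used 1 GENCODE M21 transcript a gene, the longest with an annotated stop codon (GRCm38, the same build as mm10). Other transcripts of a gene, where annotated, were not searched. The pattern was held by 25 of 29 genes, 22 to 59 bases after the stop codon. These runs show the stem-loop in capitals with its neighbours, 5′ to 3′, for genes described further on, with at least 1 gene of each of the 5 spellings found.
Hist1h1c: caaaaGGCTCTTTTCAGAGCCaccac
Hist3h2a: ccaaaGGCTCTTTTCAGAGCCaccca
Hist1h2be: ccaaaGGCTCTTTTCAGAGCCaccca
Hist2h3c1: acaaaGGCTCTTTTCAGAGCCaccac
Hist2h2ac: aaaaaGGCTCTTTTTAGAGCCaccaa
Hist1h2bb: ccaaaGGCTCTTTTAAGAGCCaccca
Hist1h4i: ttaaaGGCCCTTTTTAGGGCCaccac
Hist1h4h: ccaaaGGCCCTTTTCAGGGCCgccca
Hist1h4m: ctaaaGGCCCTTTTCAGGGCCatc
The first spelling was shared by 15 genes of the H1, H2A, H2B and H3 classes. The 2 spellings that open with GGCC were held by the 7 H4 genes, and the other 3 by genes of the other classes. Hist1h4m ended 3 bases after the stem-loop in the annotation. No match was found for Hist1h1b and Hist1h3i, whose annotated transcripts end at the stop codon, nor for Hist1h2bc and Hist2h2be. For Hist1h2bc the transcript searched had 2 exons, and the lack of a match holds for that form only.

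A poly(A) signal was searched as AATAAA or ATTAAA in the last 50 bases of the same annotated transcript of each gene. It was present in 8 genes: Hist1h1c, Hist3h2a, Hist2h2be, Hist1h2be, Hist2h3c1, Hist1h4i, Hist1h4h and Hist2h4. These runs show the signal in capitals for 6 of them.
Hist1h1c: tgcttctAATAAAaagcgtt
Hist3h2a: tatgcccAATAAAataagag
Hist1h2be: gttccttATTAAAgcattcc
Hist2h3c1: taatcccAATAAAaatttaa
Hist1h4i: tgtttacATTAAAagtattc
Hist1h4h: ttttcttATTAAAagagcga
In these 6 genes the transcript went on past the stem-loop, by 840 bases in Hist1h1c, 1643 in Hist3h2a and 1861 in Hist1h2be. It went on by 1167 bases in Hist2h3c1, 330 in Hist1h4i and 46 in Hist1h4h. Such a stretch was not particular to genes with the signal. Without a signal in the window, it was 4884 bases in Hist1h1d, 2010 in Hist1h2ac and 3 in Hist1h4m. The run in Hist1h4h began 32 bases before the transcript end and so lay close behind the stem-loop. Whether it is used as a poly(A) signal was not tested.

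Histone cluster RNA was scarce in both groups and higher in the senescent FAPs. Levels are the deposited CPM values, the reads of a gene scaled to the effective size of its library. Summed over the 29 genes they came to 94.3, 98.9 and 88.2 CPM in the control libraries and 216, 222 and 223 CPM in the senescent libraries. The means were 93.8 ± 5.36 and 220 ± 3.72 CPM (SD, n = 3 each), a ratio of 2.35, and the 2 sets of libraries did not overlap. As a share of all reads on genes, the 29 genes took 0.0082% to 0.0093% in control and 0.0231% to 0.0242% in senescent libraries. In bulk samples, fewer cells of a type and less RNA per cell cannot be told apart, so the sums do not say how the RNA was spread over cells.

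Of the 29 genes, 16 passed the filter of 0.5 CPM in at least 3 libraries and were tested. By limma, with Benjamini-Hochberg adjusted p under 0.05 over all 14776 genes tested, 14 of the 16 were higher in senescent FAPs and 0 were lower, where 21.8% of all genes tested were higher and 24.3% lower. Their median log2 fold change was 1.10 (range 0.39 to 2.25), against -0.03 over all genes tested. A log2 fold change over 1 was reached by 12 of the called genes, against 7.19% of all genes tested. Fold changes are on the log2(CPM + 0.5) scale, which understates the change of low genes.

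The filter needs care here, because a gene that is low in control can pass it only by being high in senescent FAPs. This was so for 5 tested genes that reached 0.5 CPM in no control library (Hist1h1e, Hist1h3d, Hist1h3b, Hist1h4h and Hist1h4m). These genes are included in the 14 called and in the median of 1.10 above, but their calls lend no support. Of the 9 genes at 0.5 CPM or more in all 3 control libraries, 7 were called higher, against 18.3% of all genes that met this condition. With no filter, all 29 genes had a positive log2 fold change, and 25 were called higher by limma and 0 lower (22.7% and 21.6% of all 16894 genes), with a median of 0.75. edgeR's quasi-likelihood test on the whole reads of all listed genes called 23 higher and 0 lower (21.4% and 21.1% of all genes), with a median of 1.86. All 3 senescent libraries lay above all 3 control libraries in 26 of the 29 genes, against 28.0% of all listed genes. The exceptions were Hist2h2be, Hist1h3i and Hist2h4. The deposited table has a floor of its own, since every listed gene had 8 or more reads in at least 3 libraries. Hist1h4n, with 1, 5 and 2 reads in control and 12, 18 and 8 in senescent libraries, met that floor only through the senescent libraries. So did Hist1h2ac, Hist1h2ab, Hist1h4d and Hist1h4c, which had fewer than 8 reads in every control library. Others, such as Hist1h3f, Hist1h3i, Hist2h4, Hist1h2bj and Hist1h2bb, were under 8 reads in at least 1 control library. They too needed senescent libraries to meet the floor. The counts over all 29 genes are therefore not free of this selection.

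**Figure D1:**
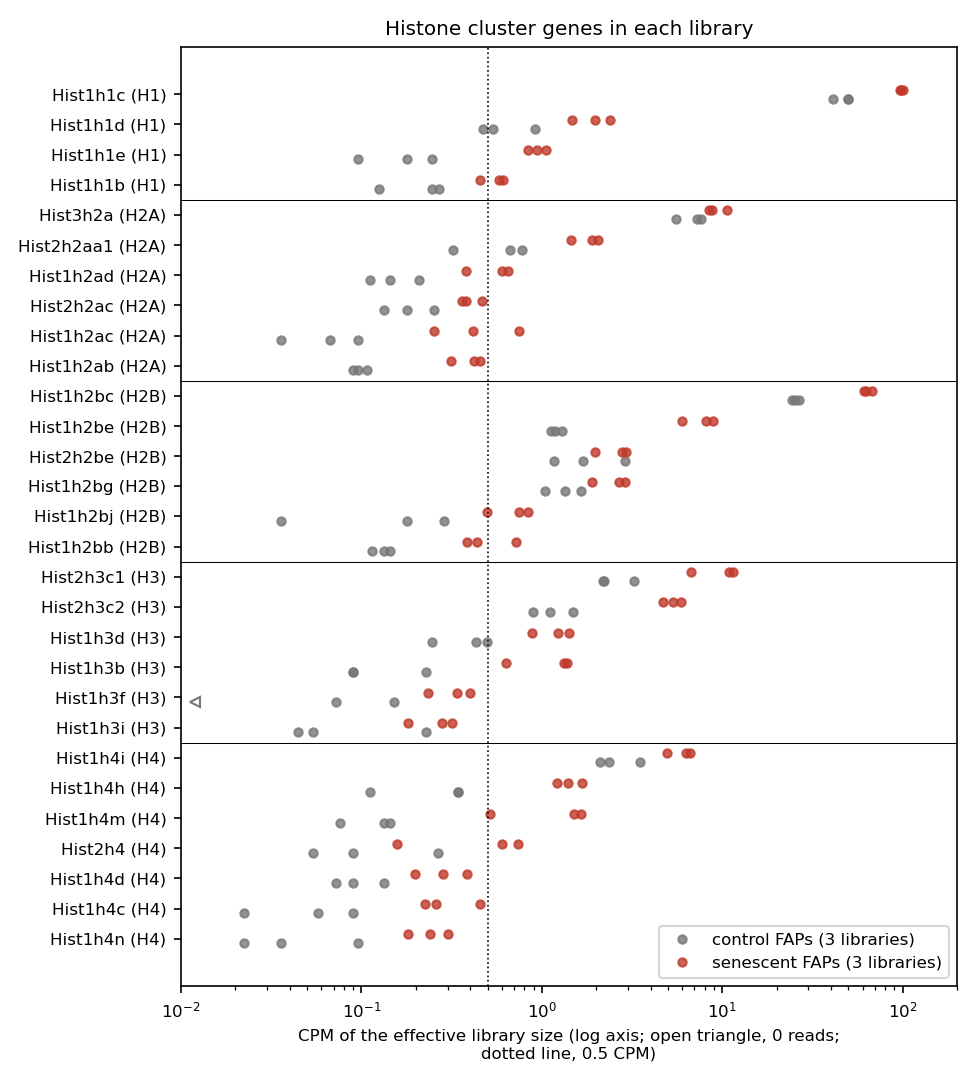
Level of each histone cluster gene in each library in CPM of the effective library size on a log axis, grouped by histone class; grey points are the 3 control FAP libraries, red points the 3 senescent FAP libraries, the dotted line marks 0.5 CPM and the open triangle a library with 0 reads (Hist1h3f). Red points lie to the right of all grey points of the same gene in 26 of 29 genes, and Hist1h1c and Hist1h2bc stand far above every other gene in the senescent libraries.

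The linker histone H1 binds DNA where it enters and leaves the nucleosome, and its genes made up the largest class by CPM. Hist1h1c (RefSeq H1f2; chr13:23738808-23740367, plus strand, a single exon) encodes histone H1.2. It measured 50.03, 49.93 and 40.98 CPM in control FAPs and 100.6, 98.1 and 96.1 CPM in senescent FAPs. The senescent libraries were close to each other and all above the control libraries, with 2242 to 5863 reads behind each value. Its log2 fold change was 1.06 (SE 0.09, limma adjusted p = 2.76e-04). Hist1h1d (H1.3) and Hist1h1e (H1.4) had log2 fold changes of 1.10 and 1.10, with limma adjusted p of 0.00516 and 0.00154. Hist1h1e is 1 of the 5 genes that passed the filter only through the senescent libraries. Hist1h1b (H1.5) was under the filter at 0.214 ± 0.0768 CPM in control and 0.545 ± 0.0824 CPM in senescent FAPs (SD, n = 3 each). Summed H1 levels went from 48.0 ± 5.36 to 101.7 ± 1.96 CPM (SD, n = 3 each).

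H2A, which pairs with H2B in the nucleosome core, went from a summed 7.90 ± 0.885 CPM in control to 12.9 ± 0.713 CPM in senescent FAPs (SD, n = 3 each; ratio 1.63). Without Hist3h2a the other 5 genes went from 1.094 ± 0.228 to 3.61 ± 0.521 CPM (ratio 3.30). Hist3h2a, with a ratio of 1.37, thus held the class ratio down. None of the other 5 genes reached 0.5 CPM in all 3 control libraries, so their ratio is open to the selection described above. Most of the sum was Hist3h2a (RefSeq H2aw; chr11:58954685-58956830, plus strand), the member outside the larger clusters. Hist3h2a measured 7.25, 7.59 and 5.56 CPM in control and 10.6, 8.75 and 8.48 CPM in senescent FAPs. The groups did not overlap, but the nearest libraries differed by little. The log2 fold change of 0.43 (SE 0.16) missed the threshold by limma (adjusted p = 0.0591). It passed by limma with the replicate number as a block (adjusted p = 0.0364), which assumes that same-numbered cultures are paired. Hist3h2a passed under 6 of 19 alternatives and stayed uncalled under 13, with limma adjusted p = 0.182 without control replicate 3. Hist2h2aa1 was the only 1 of the 2 tested H2A genes called higher, from 0.588 ± 0.235 to 1.80 ± 0.313 CPM (SD, n = 3 each; log2 fold change 1.10, limma adjusted p = 0.00498). The other 4 H2A genes, Hist1h2ad, Hist2h2ac, Hist1h2ac and Hist1h2ab, had mean levels of 0.0660 to 0.188 CPM in control and 0.397 to 0.544 CPM in senescent FAPs, too low to be tested under the filter.

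H2B completes the H2A dimer, and its genes took the next largest share after H1. Hist1h2bc (RefSeq H2bc4; chr13:23684199-23692908, plus strand, 2 exons) measured 24.4, 25.2 and 26.5 CPM in control FAPs and 62.9, 60.9 and 68.0 CPM in senescent FAPs. The libraries of each group lay close together and far from the other group. Its log2 fold change was 1.32 (SE 0.08, limma adjusted p = 1.06e-04).

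Hist1h2be (RefSeq H2bc6; chr13:23583670-23621124, minus strand, 2 exons) had the largest log2 fold change of the tested histone cluster genes on the log2(CPM + 0.5) scale. By edgeR on the whole reads of all listed genes, the log2 fold changes of Hist1h4m (3.37) and Hist1h3b (3.00) were larger than that of Hist1h2be (2.67). It measured 1.18, 1.12 and 1.29 CPM in control and 6.00, 8.83 and 8.15 CPM in senescent FAPs, a clear gap between the groups. The log2 fold change was 2.25 (SE 0.17, limma adjusted p = 1.97e-04). Hist1h2bg was called higher at 1.34, 1.05 and 1.65 against 2.90, 1.89 and 2.68 CPM (log2 fold change 0.69, limma adjusted p = 0.0251). That call was lost under 6 of 18 alternatives, including without control replicate 1 or 2 and without senescent replicate 1 or 3 (adjusted p 0.0519 to 0.0827). Hist2h2be, whose control libraries ran from 1.16 to 2.89 CPM and senescent libraries from 1.96 to 2.91 CPM, overlapped and did not pass (log2 fold change 0.39, limma adjusted p = 0.283). Without control replicate 2, the library at 2.89 CPM, Hist2h2be passed (limma adjusted p = 0.0368). It stayed uncalled under 17 of 19 alternatives, with limma adjusted p = 0.673 without control replicate 1. Hist1h2bj and Hist1h2bb stayed under the filter, with control means of 0.167 and 0.131 CPM and senescent means of 0.692 and 0.513 CPM.

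Histone H3 carries many of the modifications that mark active and silent chromatin. Its genes had the largest ratio of summed levels, from 4.42 ± 0.866 to 17.8 ± 3.44 CPM (SD, n = 3 each; ratio 4.03). The 2 H3 genes at 0.5 CPM or more in all 3 control libraries, Hist2h3c1 and Hist2h3c2, were both called higher, and the other 2 tested, Hist1h3d and Hist1h3b, passed the filter only through the senescent libraries. Hist2h3c1 (RefSeq H3c14; chr3:96246685-96248509, plus strand) measured 2.21, 2.19 and 3.25 CPM in control and 6.67, 11.5 and 10.8 CPM in senescent FAPs. Senescent replicate 1 was the lowest of its group, yet lay above all controls. Its log2 fold change was 1.72 (SE 0.24, limma adjusted p = 0.00125).

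Hist2h3c2 (RefSeq H3c15; chr3:96238108-96239127, minus strand), which lies near Hist2h3c1, measured 1.12, 0.894 and 1.49 against 4.67, 5.30 and 5.87 CPM. The groups were well apart (log2 fold change 1.80, SE 0.18, limma adjusted p = 3.84e-04). Hist1h3b measured 0.0893, 0.228 and 0.0898 against 0.635, 1.37 and 1.33 CPM, which is 4 to 12 reads in a control library (log2 fold change 1.31, limma adjusted p = 0.00334). Hist1h3d had a log2 fold change of 0.91 (limma adjusted p = 0.00739). Hist1h3f and Hist1h3i were under the filter; Hist1h3f had 0 reads in control replicate 1, and Hist1h3i overlapped between groups.

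Histone H4 pairs with H3 and is encoded by many genes. Its summed level went from 3.37 ± 0.932 to 9.95 ± 1.42 CPM (SD, n = 3 each; ratio 2.95). Only Hist1h4i reached 0.5 CPM in all 3 control libraries, and the other 2 tested, Hist1h4h and Hist1h4m, passed the filter only through the senescent libraries. Hist1h4i (RefSeq H4c9; chr13:22040636-22041362, minus strand) measured 2.37, 3.48 and 2.10 CPM in control and 4.94, 6.61 and 6.32 CPM in senescent FAPs. The groups did not overlap, and the log2 fold change was 1.05 (SE 0.20, limma adjusted p = 0.00482).

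Hist1h4h (RefSeq H4c8; chr13:23531050-23531519, plus strand) measured 0.112, 0.342 and 0.341 against 1.39, 1.67 and 1.22 CPM (log2 fold change 1.34, SE 0.19, limma adjusted p = 0.0014). Hist1h4m (RefSeq H4c17; chr13:21811746-21812147, plus strand) measured 0.134, 0.0761 and 0.144 against 1.51, 1.66 and 0.518 CPM (log2 fold change 1.41, SE 0.29, limma adjusted p = 0.00621). Senescent replicate 3 had 23 reads of Hist1h4m, against 76 and 99 in the other senescent libraries. Hist2h4, Hist1h4d, Hist1h4c and Hist1h4n were under the filter, with control means of 0.0511 to 0.136 CPM and senescent means of 0.240 to 0.498 CPM.

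**Figure D2:**
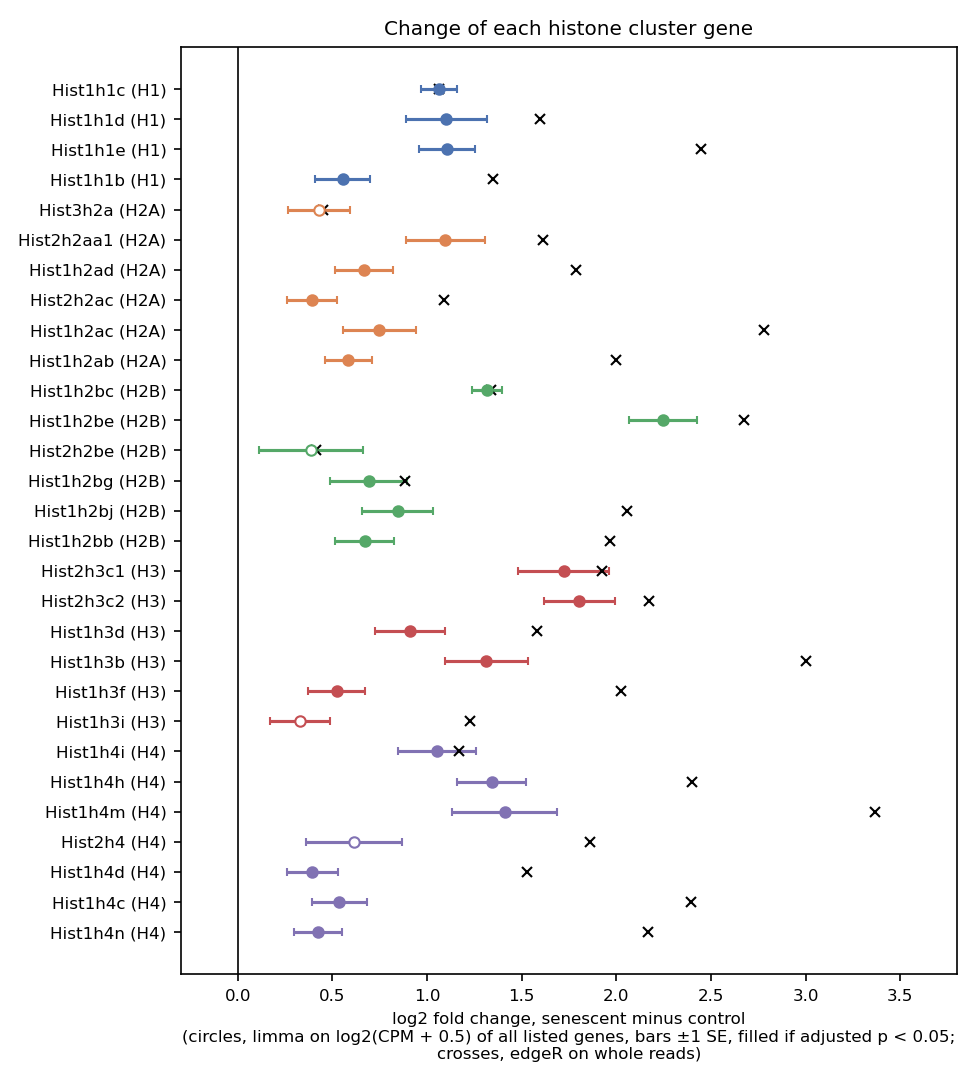
Log2 fold change of each of the 29 genes, senescent minus control, coloured by histone class; circles are limma on log2(CPM + 0.5) over all listed genes with bars of 1 SE either way, filled where the adjusted p was under 0.05, and crosses are edgeR on whole reads. All 29 circles lie to the right of 0, and the 4 open circles are Hist3h2a, Hist2h2be, Hist1h3i and Hist2h4.

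Hist1h1c and Hist1h2bc carried most of the histone reads, so the sums were recomputed without them. The other 27 genes summed to 21.5 ± 2.05 CPM in control and 58.0 ± 5.45 CPM in senescent FAPs (SD, n = 3 each; ratio 2.70), against 2.35 for all 29. H1 genes made up a mean of 51.1% of the histone cluster CPM in control and 46.2% in senescent libraries, H2A 8.40% and 5.87%, H2B 32.2% and 35.3%, H3 4.76% and 8.08%, and H4 3.57% and 4.52%. In intact chromatin the 4 core histones are used in equal amounts, so these shares are of poly(A)-selected RNA and cannot be read as protein supply.

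**Figure D3:**
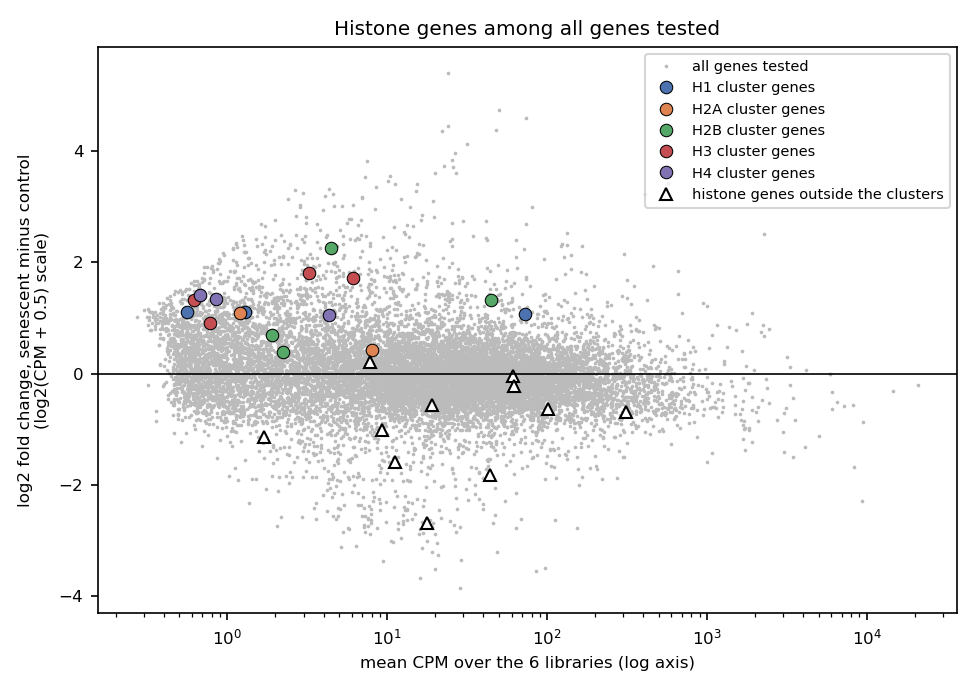
Log2 fold change on the log2(CPM + 0.5) scale against mean CPM over the 6 libraries (log axis) for all 14776 genes tested (grey); coloured circles are the 16 tested histone cluster genes by class and open triangles the 11 histone genes outside the clusters. All 16 circles lie above 0, and all but 1 of the triangles lie below it.

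The level of a gene was also set against the layout of its 3′ end. Divided by the length of the annotated GENCODE transcript, the 8 genes with a poly(A) signal had a median of 1.06 CPM per kb in control and 3.69 CPM per kb in senescent FAPs, and the other 21 had medians of 0.265 and 0.839 CPM per kb. The per-kb level of Hist1h1c went from 30.1 to 63.0, that of Hist1h2bc from 21.9 to 55.3, and that of Hist1h4i from 3.64 to 8.20 CPM per kb. The 8 genes with the signal held 66.6% of histone cluster CPM in control and 61.5% in senescent libraries. Hist1h2bc, at the second highest level per kb, had no signal in this window of the transcript searched. The window thus does not mark every gene with a high level in these libraries, and the tails of the RNA were not measured. The length of a histone transcript depends on the annotation: RefSeq gives 725 bases for Hist1h1c against 1560 in GENCODE M21.

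**Figure D4:**
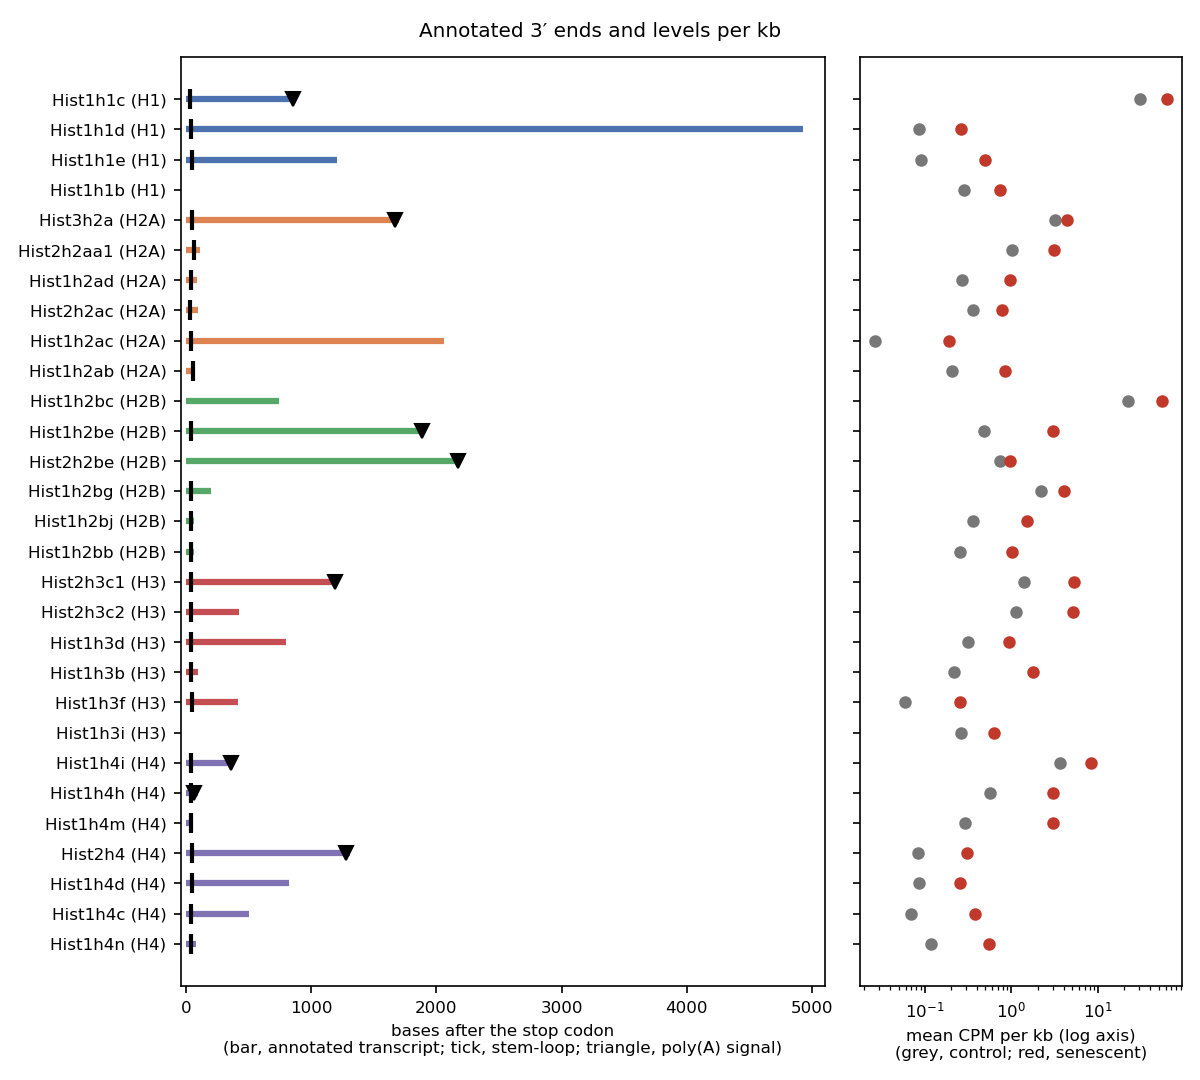
Left, bases after the stop codon in the annotated GENCODE M21 transcript of each gene (bar), with the stem-loop (tick) and a poly(A) signal in the last 50 bases (triangle); right, mean CPM per kb of transcript on a log axis in control (grey) and senescent (red) FAPs. The 8 genes with a triangle include Hist1h1c at 30.1 and 63.0 CPM per kb, while Hist1h2bc reached 21.9 and 55.3 CPM per kb without one.

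Several members share sequence, which limits how far reads can be assigned to 1 gene. Of all 50-base windows in the GENCODE transcript, 100% for Hist2h3c1, 89.8% for Hist1h4m, 89.4% for Hist2h2aa1 and 63.5% for Hist2h3c2 also occurred in a transcript of another gene. For Hist1h1c the share was 8.54%, for Hist1h2be 17.9% and for Hist1h2bc 30.1%. Among the H4 genes the share ran from 1.01% for Hist2h4 to 89.8% for Hist1h4m. Exons of 6 members overlapped another gene on the same strand. Hist2h3c1 and Hist2h2aa1 lie within the predicted gene Gm20634, which measured 3.39, 3.18 and 4.31 CPM in control and 9.65, 14.9 and 14.0 CPM in senescent FAPs. Trim17, whose exons overlap Hist3h2a, measured 5.47, 5.97 and 4.09 against 8.54, 6.17 and 6.21 CPM. The 3′ part of the annotated Hist1h1e transcript overlaps the 5′ exon of Hist1h2be, and both overlap Gm11398, at 0.268, 0.114 and 0.180 against 0.774, 1.22 and 1.13 CPM. How reads in such overlaps or in identical stretches were counted is not given in the sources used here, so these values are uncertain for the single gene.

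Promoters were read for the letters that histone genes are known to carry. RefSeq (GRCm38.p6) promoter windows, 250 bases before to 50 after the start, were at hand for 25 of the 29 genes. The missing entries were Hist1h2bc, Hist2h2be, Hist2h4 and Hist1h3f. These runs show the windows of Hist1h1c (chr13:23738557-23738856, plus strand) and of the start of Hist1h2be nearest its coding part (chr13:23585921-23586220, minus strand), the gene with the highest mean CPM and the gene with the largest log2 fold change on the log2(CPM + 0.5) scale, with CCAAT, ATTTGCAT and AAACACA in capitals.
Hist1h1c: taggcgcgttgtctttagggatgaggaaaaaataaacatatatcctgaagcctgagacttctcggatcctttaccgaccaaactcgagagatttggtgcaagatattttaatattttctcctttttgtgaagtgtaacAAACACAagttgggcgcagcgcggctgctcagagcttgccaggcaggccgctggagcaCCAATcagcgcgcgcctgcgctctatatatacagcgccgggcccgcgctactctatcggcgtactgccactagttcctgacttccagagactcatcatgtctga
Hist1h2be: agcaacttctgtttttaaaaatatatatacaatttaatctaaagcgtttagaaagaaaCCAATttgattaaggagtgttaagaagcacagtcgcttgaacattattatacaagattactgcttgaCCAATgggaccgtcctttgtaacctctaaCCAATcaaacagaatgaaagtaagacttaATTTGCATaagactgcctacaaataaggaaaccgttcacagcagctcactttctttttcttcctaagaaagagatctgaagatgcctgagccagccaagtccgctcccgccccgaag
CCAAT, the box bound by NF-Y, was found on either strand in 21 of 25 genes, against 37.4% of all 32851 promoter windows of that length. It was in every H1, H2A, H2B and H3 gene with a window and in 2 of 6 H4 genes. TATAAA was found in 17 of 25 genes, against 13.6% of all windows. Its place relative to the gene start varied, with -28 in Hist1h1b, -137 in Hist1h4i and 11 in Hist2h2aa1. The count is therefore of letters anywhere in the window, not of boxes at a set distance. The octamer ATTTGCAT, bound by the POU factor Oct-1, was found in 4 of 6 H2A and 3 of 4 H2B genes and in 0 of the H1, H3 and H4 genes, against 1.74% of all windows. The H1 box, searched as AAACACA after the windows had been seen, was found in all 4 H1 genes and in Hist1h2ab, against 7.18% of all windows. A match is a run of letters on either strand of this window, and binding was not measured.

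In 6 lists of related genes, nearly all of the calls were lower in senescent FAPs. The lists were the transcription factors of histone genes, the stem-loop binding and 3′ end processing factors, the decay factors, histone genes outside the clusters, histone chaperones, and genes of proliferation and S phase. The rule for naming gave 3 genes a list, plus any called against its list; Slbp, Lsm10, Lsm11, Cenpa, H2afx, H3f3a, H1f0, Asf1b, Chaf1a, Chaf1b and Mki67 were named after their values were seen. Dividing by library totals alone, without the deposited scaling factors, moved the median of all genes from -0.03 to 0.17 on the log2 scale. It also moved the calls over all genes from 3218 higher and 3592 lower to 4992 higher and 1929 lower, so small changes in these lists depend on the scaling.

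Of the 8 genes for transcription of histone genes, 0 were called higher and 3 lower by limma, with a median log2 fold change of -0.14. Over all genes tested 21.8% were higher and 24.3% lower, so 3 of 8 is not read as a result about the list. Npat, the cyclin E-CDK2 target that gathers at histone loci, measured 33.5, 33.7 and 34.2 CPM in control and 26.6, 30.2 and 28.1 CPM in senescent FAPs (log2 fold change -0.25, limma adjusted p = 0.035). That call of Npat was lost under 11 of 19 alternatives, 1 of which was the division by library totals (adjusted p = 0.686). Casp8ap2 (FLASH), its partner at the loci, had a log2 fold change of -0.63, and Nfyc, a subunit of NF-Y, one of -0.70 (limma adjusted p = 0.0011 and 0.0018).

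Of the 15 genes for stem-loop binding and 3′ end processing, 11 were called lower and 1 higher (24.3% and 21.8% of all genes tested), with a median of -0.45. With library totals alone, 7 were lower and 2 higher. Slbp, the stem-loop binding protein, measured 23.8, 26.3 and 24.4 CPM in control and 18.9, 19.6 and 19.5 CPM in senescent FAPs (log2 fold change -0.35, limma adjusted p = 0.0125). The groups of Slbp did not overlap, but with library totals alone its adjusted p was 0.215. The cleavage factor Cstf2 (-0.90), the Sm proteins Snrpd3 (-0.58) and Snrpf (-1.03) and the U7-specific Lsm11 (-0.71) were also lower by limma. Lsm10, the other U7-specific protein, was not called (log2 fold change 0.27, limma adjusted p = 0.0997). Zfp473, a zinc finger protein of the U7 complex, went against the list from 0.403 ± 0.0581 to 0.807 ± 0.201 CPM (SD, n = 3 each; limma adjusted p = 0.0363), a call lost under 7 of 18 alternatives. Zfp473 reached 0.5 CPM in no control library and so was tested only through the senescent libraries.

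Of the 7 genes for decay of histone mRNA, 0 were called higher and 2 lower, with a median of -0.15. This is near the 24.3% of all genes tested that were lower. Eri1, the exonuclease that trims the histone stem-loop, had a log2 fold change of -0.63 and Exosc10, the nuclear exosome subunit, one of -0.33 (limma adjusted p = 0.0032 and 0.0149). Exosc10 was not called with library totals alone (adjusted p = 0.301). Dcp2, the decapping enzyme, did not pass (log2 fold change -0.20, limma adjusted p = 0.143).

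Many histone genes outside the clusters have introns and ordinary poly(A) tails. Of the 11 genes 0 were called higher and 8 lower (21.8% and 24.3% of all genes tested), with a median of -0.69, and with library totals alone 8 were still called lower. H2afz, the H2A.Z variant, measured 71.6, 81.6 and 53.2 CPM in control and 20.0, 19.5 and 16.9 CPM in senescent FAPs (log2 fold change -1.83, limma adjusted p = 2.67e-04). The groups of H2afz were far apart, opposite in direction to all 16 tested cluster genes. H3f3b and H3f3a, the genes for H3.3, had log2 fold changes of -0.69 and -0.63. H1fx, H2afx and the centromeric Cenpa had -1.13, -1.58 and -2.68, all called lower by limma. H1f0, the linker histone of arrested and differentiated cells, was not called (log2 fold change -0.21, limma adjusted p = 0.139), and neither were H2afj and H2afy.

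Chaperones bring histones to DNA. Of the 26 genes 0 were called higher and 20 lower (21.8% and 24.3% of all genes tested), with a median of -0.55, and with library totals alone 15 were lower. Nasp, which holds the H3-H4 reserve, measured 43.0, 50.9 and 37.5 CPM in control and 17.4, 14.4 and 16.7 CPM in senescent FAPs (log2 fold change -1.40). Hjurp, the chaperone of Cenpa, and Npm1, nucleophosmin, had log2 fold changes of -1.53 and -1.03. The replication-coupled Asf1b, Chaf1a and Chaf1b had -2.55, -1.10 and -1.91, and all of these were called lower by limma.

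Of the 13 genes of proliferation and S phase, 12 were tested, 0 were called higher and 10 lower (21.8% and 24.3% of all genes tested), with a median of -2.25. With the replicate block 1 was called higher. Mki67, the antigen of cycling cells, measured 125, 247 and 101 CPM in control and 19.0, 9.80 and 9.27 CPM in senescent FAPs (log2 fold change -3.55). Ccne2, a cyclin that drives entry to S phase, Mcm5 of the replicative helicase, and Top2a, an etoposide target, had log2 fold changes of -2.37, -2.71 and -3.50, all called lower by limma. Control replicate 2 was the highest library for Mki67, and senescent replicate 1 the highest of its group. The cluster histone genes thus stood higher in the libraries where these replication genes were lower, and what ties the 2 was not tested.

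**Figure D5:**
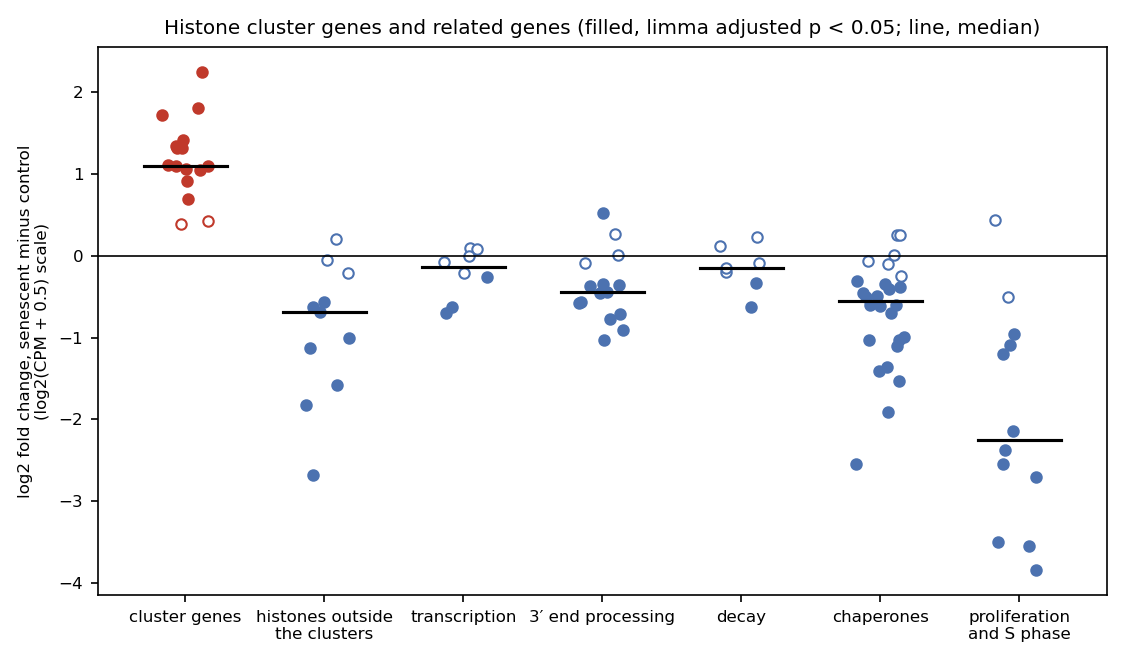
Log2 fold change, senescent minus control on the log2(CPM + 0.5) scale, for the tested histone cluster genes (red) and 6 lists of related genes (blue), filled where the limma adjusted p was under 0.05, with a line at each median. The medians run from 1.10 for the cluster genes to -2.25 for proliferation and S phase.

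The cell type was checked with markers. All 7 FAP markers were listed, and their sum was 11456 to 23299 CPM in control and 4455 to 6743 CPM in senescent FAPs, with 3 of the 7 (Cd34, Dcn and Ly6a) called higher and 1 (Col1a1) lower. Without Col1a1 the other 6 summed to 1478 to 2170 CPM in control and 1916 to 2670 CPM in senescent FAPs, so the lower sum came from Col1a1. Endothelial markers summed to 4.24 to 5.95 CPM in control and 3.91 to 4.94 CPM in senescent FAPs, with Pecam1 called higher and Kdr lower. Of 5 leukocyte markers, Ptprc and Adgre1 were not among the genes listed, and the other 3 (Cd53, Lyz2 and Cd68) were all called higher, from a sum of 3.84 to 7.61 CPM to one of 17.8 to 24.8 CPM. Of 5 satellite cell markers, Pax7, Myod1 and Myf5 were not among the genes listed, and the other 2 summed to 14.3 to 19.3 and 23.4 to 30.2 CPM. The leukocyte and satellite cell sums did not overlap between the groups, the endothelial sums did, and their part in the result was not tested. Read totals on genes ran from 41412179 to 59912520 a library, with the groups overlapping, and 1 read was worth 0.0167 to 0.0225 CPM.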

How the data were processed

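RNA of 3 control and 3 senescent FAP cultures was made into poly(A)-selected stranded libraries, and the deposited values, 1 column a library, are signal values: CPM that the authors scaled by edgeR's effective library size (edgeR 3.10, R 3.6.0 and mm10 in the submitters' processing notes). The aligner, counter, annotation and use of strand are not given in the sources used here. The values were whole multiples of 1 read for 100% of cells (tolerance 0.01 read), with 41412179 to 59912520 reads a library. The deposited scaling factors were 0.917 to 0.940 in control and 1.07 to 1.087 in senescent libraries. A row named Unspecified (0.0041% to 0.0070% of reads) was left out, which left 16894 genes.

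The main test was limma 3.58.1 (R 4.3.3) with a variance trend on log2(CPM + 0.5), two-sided, over the 14776 genes at 0.5 CPM or more in at least 3 libraries. P-values were Benjamini-Hochberg adjusted over all genes tested, with 0.05 as the threshold. The script was tested on simulated data. Alternatives were other pseudocounts, filters and scalings, each library left out, the replicate number as a block, array weights, no variance trend, and edgeR 4.0.16 and DESeq2 1.42.0 on the whole reads. Same-numbered control and senescent libraries deviated together from their group means (correlations 0.537, 0.308 and 0.207), as did control 2 and senescent 3 (0.153). The replicate numbers were taken to pair the cultures in the block setting, but no label or method says that they do. Replicates differed by more than counting noise, and none was a copy.

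The members follow from their symbols, and the members and lists were chosen with earlier results of these data known. Values are given for the 5 members with the largest called rises, the 5 with the highest mean, the highest of each class, and the 3 related genes of each list with the smallest p, plus those called against their list. Transcript structure came from GENCODE M21 and promoters from RefSeq (GRCm38.p6), and 29 of 29 members matched both annotations. Levels per kb divide by the GENCODE transcript length. An exact permutation test of 3 against 3 libraries cannot go below 0.1 and was not used.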

Additional observations from a re-analysis of the deposited data

How the results depend on the processing

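The limit throughout is depth: 13 of the 29 genes lay under the filter, some with 0 to 5 reads in a control library, so their size of change depends on the pseudocount and the test. No histone cluster gene was lower at an unadjusted p under 0.05 in any of the settings run, since all log2 fold changes were positive. Of 296 gene-by-alternative values of the 16 tested members, 282 stayed on their side of the threshold, 6 lost it (all Hist1h2bg), 8 gained it and 0 reversed. Of 607 for 32 related genes, 580 stayed, 22 lost it, 4 gained it and 1 reversed (Dcp2, 0.0095 with library totals only). The 32 genes are the related genes given with values above, plus Ccna2 and Hat1, which stayed under all 19 alternatives. Except where a setting removes or adds genes by its construction, the cause was not tested.

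Members called higher numbered 14, and 25 with no filter and 23 with edgeR on all listed genes (chosen after seeing the data). With a filter at 2 CPM they numbered 6 of 8 tested, where 2421 of all 12304 genes tested were higher. Hist1h2be and Hist2h3c2 reached 2 CPM in no control library, so their calls at that filter lend no support. With 1 library left out, members called higher numbered 13 to 15, where 2130 to 3405 of all 14776 genes tested were higher. With the replicate block they numbered 15, and this assumed pairing changed no call other than that of Hist3h2a among the members. The median log2 fold change of 1.10 became 1.502 with a pseudocount of 0.1, 0.748 with no filter, 1.63 with edgeR, 1.65 with DESeq2 and 1.86 with edgeR on all listed genes, and ran from 1.06 to 1.25 with 1 library left out.

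The class medians of H1, H3 and H4 include Hist1h1e, Hist1h3d, Hist1h3b, Hist1h4h and Hist1h4m, which passed the filter only through the senescent libraries. At 2 CPM, the H2B and H3 medians include Hist1h2be and Hist2h3c2, which passed that filter only through the senescent libraries. By class, the H1 median (1.10) was 1.62 with edgeR and 1.64 with DESeq2. The H2A median (0.762) was 0.984 and 0.614 with pseudocounts of 0.1 and 1, 0.624 with no filter, 0.428 at 2 CPM, 0.932 with library totals, 0.623 with quantile normalization, 1.06 with edgeR, 1.07 with DESeq2 and 1.70 with edgeR on all listed genes. The H2B median (1.01) was 1.32 at 2 CPM and 1.65 with edgeR on all listed genes. The H3 median (1.52) was 1.99 and 1.21 with the pseudocounts, 1.11 with no filter, 1.76 at 2 CPM, 1.27 with quantile normalization, 2.07 with edgeR, 2.09 with DESeq2, 1.97 with edgeR on all listed genes, and 1.39 to 1.72 with 1 library left out. The H4 median (1.34) was 2.13 and 0.942 with the pseudocounts, 0.613 with no filter, 0.993 with quantile normalization, 2.42 with edgeR, 2.45 with DESeq2 and 2.17 with edgeR on all listed genes.

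Called higher at 2 CPM were 1 H1, 0 H2A, 2 H3 and 1 H4 gene, where 2421 of all 12304 genes tested were higher. With no filter these were 5 H2A, 5 H2B and 6 H4 genes, and with edgeR on all listed genes 4, 5 and 6. Over all listed genes, 22.7% and 21.4% were higher in these 2 settings. The H2A count (1) was 2 with median-of-ratios scaling, library totals, the replicate block, array weights and DESeq2, and 1 to 2 with 1 library left out. Over all 14776 genes tested, the first settings named called 3492, 4992, 3576, 4519 and 3560 higher, in that order.

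In the related lists, library totals gave 2 transcription genes higher, 2 higher and 7 lower for 3′ end processing, 2 higher and 1 lower for decay, and 1 higher for proliferation and S phase. The 1 higher 3′ end processing gene, Zfp473, was lost (0 higher) at 2 CPM, with quantile normalization and with any 1 library left out (0 to 0), and array weights gave 2. Decay genes higher numbered 1 with quantile normalization, 1 with array weights and 0 to 1 with 1 library left out, and lower 1 to 3. Array weights gave 1 histone gene outside the clusters, 2 chaperones and 1 proliferation gene higher. The replicate block gave 1 proliferation gene higher, and leaving out 1 library 0 to 1 chaperone and 0 to 1 proliferation gene. Over all 14776 genes tested, 4992 were higher and 1929 lower with library totals, and 4519 and 5217 with array weights. The replicate block gave 3576 and 3947. The counts of higher genes in these lists are not read as results about them.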
